A study of Mus musculus with 4 samples.

Results

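The genes described here are the nuclear protein-coding genes whose GENCODE M21 symbol begins with Nduf, the family that holds the nuclear subunits and several assembly factors of mitochondrial complex I. The rule found 46 genes among 21755 protein-coding genes on the 19 autosomes and the X chromosome of the mouse build mm10. They comprise 36 complex I subunits, of which 7 are core and 29 accessory, 8 assembly factors (Ndufaf1 to Ndufaf8), and Ndufa4 and Ndufa4l2, which are grouped apart because Ndufa4 is now counted as a subunit of complex IV and Ndufa4l2 is its paralogue. Entries of the same name stem that the annotation does not call protein-coding were not members: the processed pseudogenes Ndufab1-ps, Ndufs6b, Ndufb4c and Ndufa11b, and Ndufb1-ps, which is annotated as a long non-coding RNA of a bidirectional promoter. The RefSeq annotation calls Ndufb1-ps protein-coding Ndufb1. Core subunits encoded by the mitochondrial genome were not analysed here.

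Trimethylation of lysine 4 of histone H3 (H3K4me3) was mapped by chromatin immunoprecipitation sequencing in gastrocnemius, a fast-contracting calf muscle, of adult female B6CASTF1/J mice aged 2 months. Such mice come from a cross of C57BL/6J with CAST/EiJ and carry a genome of each strain. Pool E (biological replicate 1) and pool F (biological replicate 2) each combined 2 biosamples and gave 2 technical libraries with fragments of 200 to 600 bp, which made 4 libraries in all. Both pools shared tissue, sex, age and strain, so there was no treated or mutant group, and the pools are the only replicates. As a check of the tissue label, the muscle genes Ckm, Acta1, Mylpf and Des were marked with signal values between 43.0 and 58.8, while Alb of liver and Myh6 of heart muscle had no peak near a start site.

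Complex I, NADH:ubiquinone oxidoreductase, is the entry point of the respiratory chain. Its core subunits pass electrons from NADH over flavin and iron-sulfur clusters to ubiquinone and pump protons, its accessory subunits surround and stabilise this core, and assembly factors build the enzyme without remaining in it. Muscle depends on it for oxidative production of ATP. H3K4me3 is deposited around the starts of active and poised genes, most of all at promoters rich in CpG dinucleotides, and a bulk tissue signal adds up muscle fibres and every other cell type present.

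Genes with a peak no farther than 1000 bp from a transcription start site (TSS) are called marked. The signal value of a gene is the highest among those peaks, as the authors deposited it. It describes and ranks peaks within a list, and the scale on which it was computed is not given in the sources used here. All 46 Nduf genes were marked in the replicated list, against 69.3% of all protein-coding genes. All 46 were also marked in the list of pool E (69.3% of all) and in that of pool F (68.9% of all). Marks in both pools were found for all 46 members and for 68.6% of all genes, and marks in the pooled list for all 46 members and 69.5% of all genes. Among the strongest peak of each member, the lowest −log10 q-value was still 49.7 in pool E, 48.2 in pool F and 47.0 in the replicated list. No member thus lay near the edge of detection, although some members had weaker peaks besides. The reference TSS of a gene, the most upstream start of its principal transcripts, lay inside a peak for all 46 members and for 91.2% of all marked genes.

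Promoter sequences introduce the genes on which the results below turn. They come from RefSeq (GRCm38.p6, the same build as mm10), which is the C57BL/6J reference and not the CAST/EiJ allele, run 5′ to 3′ on the strand of the gene, and hold 250 bases before and 50 after the RefSeq start. Of the 46 members, 40 had a promoter in the table. Ndufa2, Ndufa4l2, Ndufaf6, Ndufb9 and Ndufs1 were among those with no entry. Both strands were searched for the exact letters of motifs of factors known from work on nuclear genes of the respiratory chain: GCGCATGCG for NRF1, CCGGAAG for ETS factors such as GABP, AAGATGGCG for YY1 and TCAAGGTCA for the estrogen-related receptors (ERR). Capitals below mark such matches. A match is a description of letters and not evidence of binding.

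The following 4 promoters were chosen because they hold NRF1 or ETS matches and because the first 3 are shared with a divergent neighbour. They are Ndufa8 (chr2:36049289-36049588, minus strand, an NRF1 match on the opposite strand), Ndufs3 (chr2:90904672-90904971, minus strand, an ETS match on each strand), Ndufaf8 (chr11:120098684-120098983, plus strand, an ETS match followed by a YY1 match) and Ndufaf4 (chr4:24897833-24898132, plus strand, an NRF1 match).
Ndufa8 promoter: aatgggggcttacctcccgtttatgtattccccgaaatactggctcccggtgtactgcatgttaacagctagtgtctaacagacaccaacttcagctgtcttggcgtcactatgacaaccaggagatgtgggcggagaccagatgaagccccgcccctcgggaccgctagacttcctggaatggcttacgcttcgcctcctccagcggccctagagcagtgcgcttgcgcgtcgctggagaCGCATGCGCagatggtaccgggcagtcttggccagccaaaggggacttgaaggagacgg
Ndufs3 promoter: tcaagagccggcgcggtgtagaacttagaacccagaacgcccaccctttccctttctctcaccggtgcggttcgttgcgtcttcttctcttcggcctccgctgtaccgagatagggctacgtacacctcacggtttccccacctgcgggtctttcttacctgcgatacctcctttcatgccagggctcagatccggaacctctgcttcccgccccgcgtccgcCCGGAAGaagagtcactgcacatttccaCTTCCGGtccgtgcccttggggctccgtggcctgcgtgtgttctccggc
Ndufaf8 promoter: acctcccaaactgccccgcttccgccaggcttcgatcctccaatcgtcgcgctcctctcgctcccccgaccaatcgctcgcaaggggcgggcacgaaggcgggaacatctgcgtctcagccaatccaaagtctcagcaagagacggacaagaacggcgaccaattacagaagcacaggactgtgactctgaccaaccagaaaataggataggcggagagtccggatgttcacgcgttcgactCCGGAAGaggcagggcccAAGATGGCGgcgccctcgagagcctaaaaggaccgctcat
Ndufaf4 promoter: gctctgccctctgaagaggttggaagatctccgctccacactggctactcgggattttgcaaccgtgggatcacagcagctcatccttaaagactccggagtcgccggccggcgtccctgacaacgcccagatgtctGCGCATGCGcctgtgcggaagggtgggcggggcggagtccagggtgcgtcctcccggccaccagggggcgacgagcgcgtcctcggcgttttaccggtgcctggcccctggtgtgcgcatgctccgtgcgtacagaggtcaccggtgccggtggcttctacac

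YY1 matches stood in 6 of the 40 promoters (15%), beside 2.25% of 16433 protein-coding genes with a promoter in the table and 3.11% of the marked ones. All 6 lay on the sense strand after the RefSeq start, which held for 199 of the 369 genes (53.9%) with the match in the whole table. With the RefSeq start counted as 0, the match began at 10 in Ndufaf8, 22 in Ndufc1, 24 in Ndufs7, 29 in Ndufa9, 33 in Ndufs6 and 35 in Ndufs4. The letters contain ATG, and in 5 of the 6 genes, all but Ndufaf8, this ATG was an annotated start codon in GENCODE. Among all 199 genes with a sense match after the start it was the start codon in 133 (66.8%). The matches are shown with up to 10 bases on each side, cut at the end of the promoter window for Ndufs4 and Ndufs6. They cover chr6:126849097-126849125 (minus strand) for Ndufa9, chr11:120098934-120098962 (plus) for Ndufaf8, chr3:51408915-51408943 (minus) for Ndufc1, chr13:114388045-114388069 (minus) for Ndufs4, chr13:73328433-73328459 (minus) for Ndufs6 and chr10:80249463-80249491 (plus) for Ndufs7.
Ndufa9: attgtgggagAAGATGGCGgccgccgtcc
Ndufaf8: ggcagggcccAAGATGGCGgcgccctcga
Ndufc1: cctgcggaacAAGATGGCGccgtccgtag
Ndufs4: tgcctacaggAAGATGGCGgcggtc
Ndufs6: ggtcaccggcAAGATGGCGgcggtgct
Ndufs7: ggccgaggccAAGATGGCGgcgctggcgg

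The other motifs were read in the same 40 promoters. NRF1 letters occurred in 4 of them (10%), namely Ndufa8, Ndufa11, Ndufaf4 and Ndufaf5, beside 2.73% of all genes and 3.73% of marked genes. Of these 4, 3 had a divergent coding neighbour. The same share was not computed over all genes with these letters, so no link is read from it. With any base allowed at the sixth letter (GCGCANGCG) the count was 10 of 40 (25%), beside 10.1% of all and 13.9% of marked genes. ETS letters occurred in Ndufaf1, Ndufaf8, Ndufb6, Ndufb7, Ndufs3 and Ndufs8, which is 15% of the 40 and lies between the share of all genes (13.4%) and that of marked genes (18.0%). No member held the ERR letters in this window, and 0.389% of all genes did. At least 1 of the 4 motifs was present in 15 of the 40 members, beside 17.5% of all genes and 23.3% of marked genes. These are counts over an annotation, with no test. The members holding a motif differed widely in signal value. In the replicated list Ndufc1 with a YY1 match had the lowest signal value of any subunit (24.9), and Ndufb6 with an ETS match the highest of any member (62.8).

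Signal values of the members lay between 12.7 and 62.8 in the replicated list. The median was 52.4 for the 46 members and 45.2 for all 15067 marked genes, and 33 of the 46 lay above the median of all marked genes. Among classes the median was 60.2 for the 8 assembly factors, 51.2 for the 7 core subunits and 51.6 for the 29 accessory subunits. Assembly factors had the higher median in each pool as well. In pool E the median was 65.8 for assembly factors and 55.9 for all 36 subunits, beside 48.9 for all marked genes. In pool F it was 55.7 for assembly factors and 46.3 for subunits, beside 42.9 for all marked genes. Because signal values of separate lists are on separate scales, each gene is described below also by its percentile among the marked protein-coding genes of the same list. Differences between the classes were not tested, since genes are not replicates. In bulk tissue, fewer cells with the mark and less of the mark per cell cannot be told apart.

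**Figure D1:**
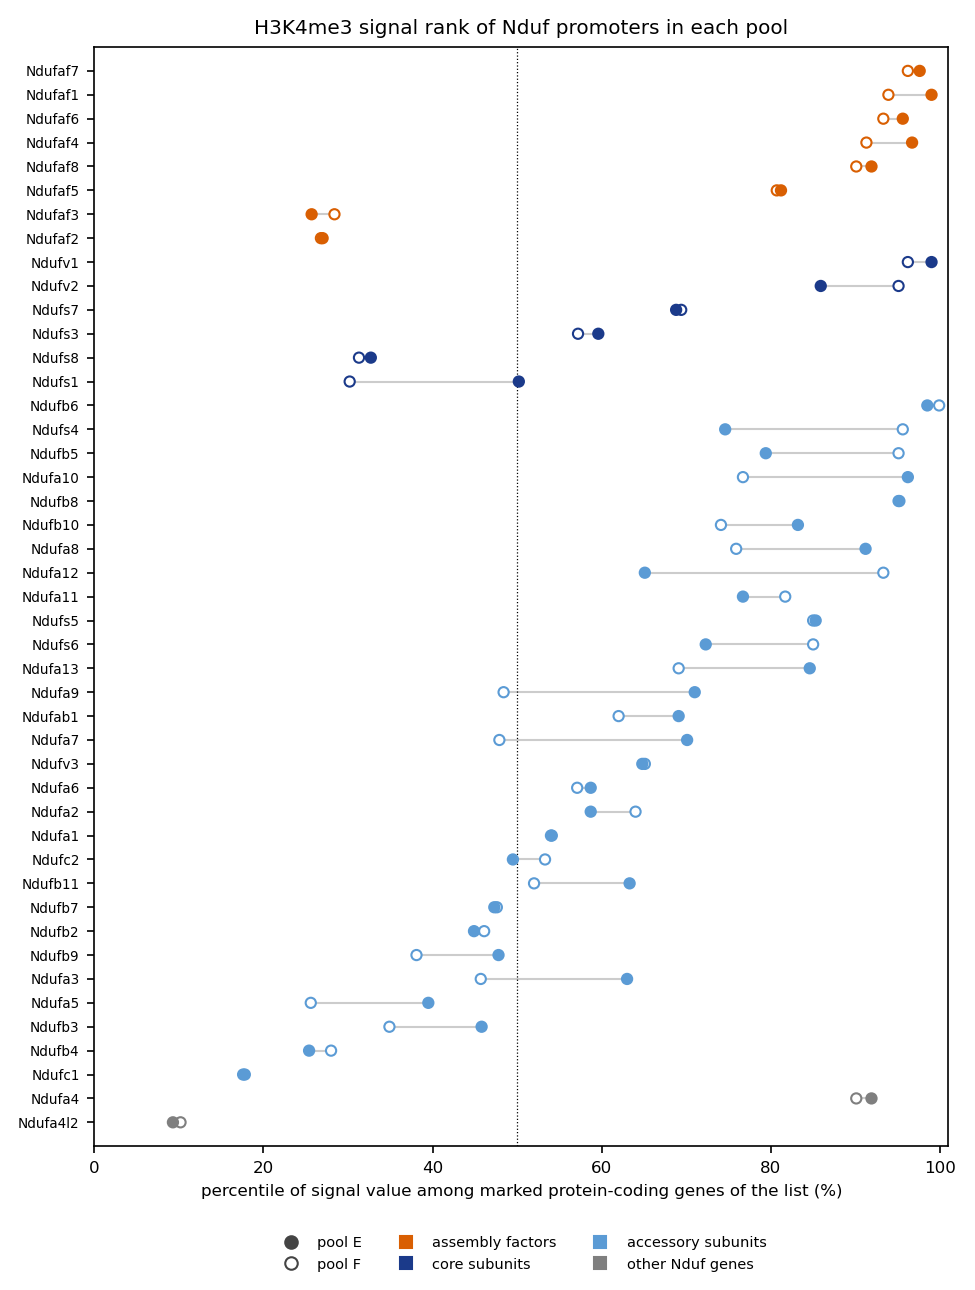
Percentile of the signal value of the reported Nduf genes among marked protein-coding genes, in the list of pool E (filled) and of pool F (open), with genes grouped by class and sorted by their signal value in the replicated list. Of the 8 assembly factors, 5 lie above the 90th percentile in both pools and 2 below the 30th in both, while subunits are spread between 17.6 and 99.9.

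The core subunits ranged widely. Ndufv1, which binds NADH and the flavin cofactor, had a signal value of 68.2 in pool E and 57.2 in pool F, at percentiles 99.0 and 96.2. Ndufv2, its iron-sulfur partner at the entry of electrons, had 63.2 in pool E and 56.9 in pool F, at percentiles 85.9 and 95.1. These genes of the NADH-oxidising tip were the only core subunits above the 90th percentile in the replicated list, where Ndufv1 had 61.9 and Ndufv2 59.7. Ndufs1, the largest subunit of the same module and a carrier of several iron-sulfur clusters, had the lowest value of the core subunits in the replicated list, 35.0, with 49.0 in pool E and 33.2 in pool F. Its percentile was 50.2 in pool E and 30.2 in pool F, so the pools placed it differently, and in pool E Ndufs8 was lower.

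Among core subunits of the ubiquinone-reducing module, Ndufs7, which carries the last iron-sulfur cluster of the chain, had 57.1 in pool E and 49.9 in pool F, at percentiles 68.8 and 69.4. Ndufs3 had 53.9 in pool E and 45.3 in pool F, at percentiles 59.6 and 57.2. Ndufs8, a further iron-sulfur subunit, had 40.0 in pool E and 33.8 in pool F, at percentiles 32.7 and 31.3. These 3 genes kept nearly the same rank in both pools.

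Of the accessory subunits, Ndufb6 of the membrane arm, the highest of the 46 members in the replicated list, had 67.7 in pool E and 58.9 in pool F, at percentiles 98.5 and 99.9. Ndufb8, also of the membrane arm, had 66.2 and 56.9 in pools E and F and lay at percentile 95.2 in pool E and 95.1 in pool F. Ndufa8, a subunit facing the intermembrane space, had 65.0 in pool E and 51.7 in pool F, at percentiles 91.2 and 75.9. Only Ndufb6 and Ndufb8 of the accessory subunits were above the 90th percentile in both pools, and Ndufv1 of the core joined them, which made 3 of 36 subunits. For comparison, 1068 of the 14930 genes marked in both pools were above the 90th percentile in both pools.

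At the low end, Ndufc1, a small subunit of the membrane arm, had 27.0 in pool E and 23.6 in pool F, at percentiles 17.8 and 17.6. Ndufb4 had 35.0 in pool E and 32.1 in pool F, at percentiles 25.4 and 28.0. Ndufa5 had 44.1 in pool E and 30.6 in pool F, at percentiles 39.5 and 25.6. The low rank of Ndufc1 and Ndufb4 was thus shared by both pools. Ndufab1, the mitochondrial acyl carrier protein, took a middle place with 57.3 in pool E and 47.3 in pool F (percentiles 69.1 and 62.0). The X-linked subunit genes Ndufa1 and Ndufb11 also lay mid-range, with 51.1 and 55.3 in pool E and 44.1 and 43.4 in pool F.

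The other accessory subunits filled the range between. Ndufs5, which faces the intermembrane space, had 63.0 in pool E and 54.0 in pool F, at percentiles 85.3 and 85.0. Ndufs6, a zinc-binding subunit, had 58.2 in pool E and 54.0 in pool F, at percentiles 72.3 and 85.0. Ndufb5 had 60.9 in pool E and 56.9 in pool F, at percentiles 79.4 and 95.1. Like these, Ndufb10 and Ndufa11 of the membrane arm and Ndufa13 were in the upper part of both lists, at percentiles of 69.1 to 84.6. Ndufv3, a subunit of the NADH-oxidising module, had 55.9 in pool E and 48.5 in pool F, at percentiles 64.8 and 65.1. Ndufa2, which has a thioredoxin-like fold, had 53.5 in pool E and 48.2 in pool F, and Ndufa6 had 53.4 in pool E and 45.2 in pool F. Below the median of all marked genes in both pools lay Ndufb2, Ndufb3, Ndufb7 and Ndufb9 of the membrane arm, with 46.9 to 48.1 in pool E and 35.9 to 42.0 in pool F. Ndufc2 and Ndufa3 were above that median in a single pool, Ndufc2 in pool F and Ndufa3 in pool E.

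Several accessory subunits stood at different ranks in the pools. Ndufs4, whose loss causes a mitochondrial encephalopathy in mice, had 58.9 in pool E and 57.1 in pool F, which is percentile 74.6 in pool E and 95.6 in pool F. Ndufa12 had 56.0 in pool E and 56.4 in pool F, at percentiles 65.1 and 93.3. Ndufa10, which has the fold of a nucleoside kinase, was higher in rank in pool E, with 66.7 in pool E and 51.9 in pool F, at percentiles 96.2 and 76.7. Ndufa9 was at percentile 71.0 in pool E and 48.4 in pool F, and Ndufa7 at 70.1 in pool E and 47.9 in pool F. In all, 11 of 46 members (23.9%), all of them subunits, differed by more than 15 percentile points between the pools, beside 13.6% of all marked genes. No assembly factor did. With 1 list per pool, the spread within a pool is unknown and no test of these differences was possible.

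Of the assembly factors, 6 had a signal value above the median of all marked genes and 2 below it. The roles given here are known largely from human cells. Ndufaf1, which acts in building the membrane arm together with Ecsit and Acad9, had 68.2 in pool E and 56.5 in pool F, at percentiles 99.0 and 93.9. Ndufaf7, a methyltransferase, had 67.3 in pool E and 57.2 in pool F, at percentiles 97.6 and 96.2. Ndufaf4 had 66.9 in pool E and 55.9 in pool F, at percentiles 96.7 and 91.3. Ndufaf6 and Ndufaf8 were close to these: Ndufaf6 had 66.4 in pool E and 56.4 in pool F, and Ndufaf8 had 65.2 in pool E and 55.5 in pool F. These 5 genes were above the 90th percentile of both pools. Ndufaf5, a hydroxylase that modifies Ndufs7 and has Ndufaf8 as its partner protein, followed with 61.5 in pool E and 52.8 in pool F, at percentiles 81.2 and 80.7.

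Ndufaf2 and Ndufaf3 formed the low pair. Ndufaf2, a paralogue of the subunit Ndufa12, had 36.1 in pool E and 31.5 in pool F, at percentiles 27.0 and 26.8. Ndufaf3, which acts with Ndufaf4 on the ubiquinone-reducing module, had 35.2 in pool E and 32.3 in pool F, at percentiles 25.7 and 28.4. Both genes therefore lay well apart from the other 6 in each pool, and Ndufaf3 stood far from its partner Ndufaf4.

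Ndufa4 and its paralogue Ndufa4l2, placed outside complex I, lay far apart. Ndufa4 had 65.2 in pool E and 55.5 in pool F, at percentiles 91.9 and 90.1. Ndufa4l2, known from other systems as a target of hypoxia-inducible factor, had 13.9 in pool E and 13.4 in pool F, at percentiles 9.3 and 10.2, and was the lowest member in every list.

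Members of related groups gave a frame for these values. All 13 entries listed as complex I assembly genes with other names were marked. Their median signal value was 55.6 in the replicated list, between those of the Ndufaf genes and of the subunits. Their median lay between these in pool F as well (51.8), but in pool E it was 55.2, below the 55.9 of the subunits. In all 3 lists Foxred1 was the highest of them, at 61.7 in the replicated list, and Tmem186 the lowest, at 38.5. All 28 listed nuclear subunits of complexes II, III and V were marked, with a median signal value of 51.2. Atp5g3 and Cyc1 were at the top with 63.3 each in the replicated list. In pool E Atp5g3 was the highest of them (69.2) and in pool F Cyc1 (59.1). Sdha was the lowest in every list, with 30.9 in pool E, 24.8 in pool F and 26.0 in the replicated list.

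Domain width was measured after peaks at most 1000 bp apart were joined, and the widest domain within 1000 bp of a TSS counted. The median width was 2613 bp over the 46 members and 2400 bp over all marked genes, and 34 of the 46 members exceeded the median of all. It was 2356 bp for assembly factors, 3644 bp for core subunits and 2617 bp for accessory subunits. Pool E gave 2361.5 bp for assembly factors and 3069 bp for subunits, and pool F gave 2408 bp for assembly factors and 2628.5 bp for subunits. Assembly factors thus had the higher median signal value and the lower median width in both pools. The difference in width was smaller among genes with no divergent neighbour (a coding gene that starts close behind on the opposite strand), where the median was 2455.5 bp for 4 assembly factors and 2583 bp for 22 subunits of the replicated list. Many of these domains were shared with other genes. The domain of 23 of the 46 members (50%), 5 of the 8 assembly factors and 17 of the 36 subunits among them, also held a TSS of another protein-coding gene, beside 20.9% of all marked genes. A single peak made up the domain of 38 members (82.6%) and of 80.0% of all marked genes.

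**Figure D2:**
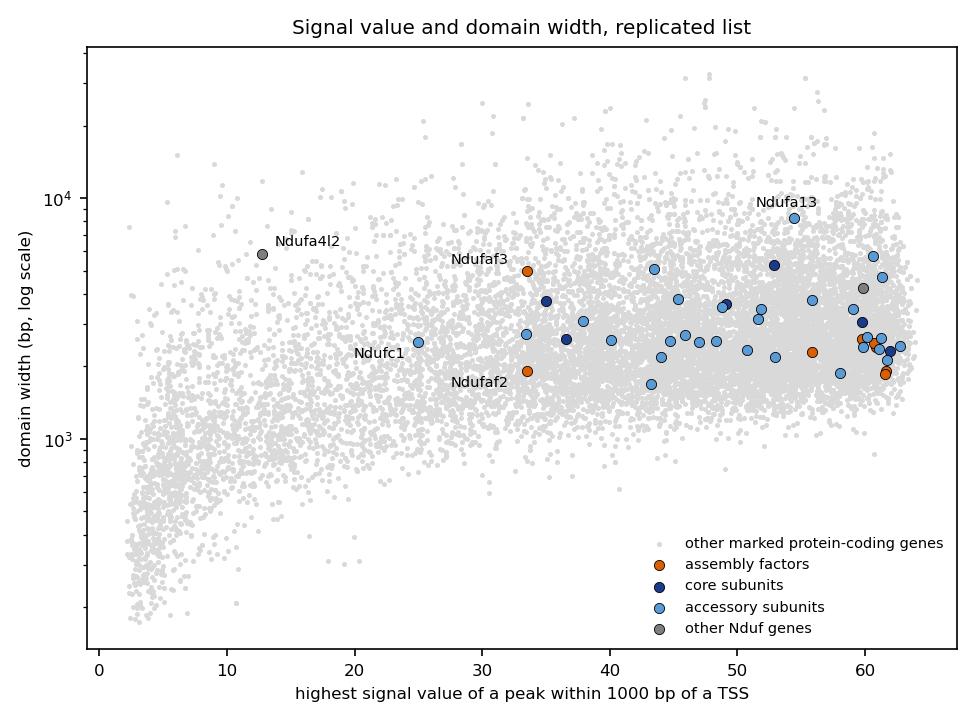
Highest signal value near a TSS (horizontal) and domain width in bp (vertical, log scale) for every marked protein-coding gene of the replicated list, with the reported Nduf genes coloured by class. The 5 strongest assembly factors gather at signal values of 59.7 to 61.6 and widths of 1862 to 2607 bp, while Ndufa13 reaches 8228 bp.

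Ndufa13, which encodes a subunit also known as GRIM-19, had a domain of 8228 bp (chr8:69895765-69903992) made of 4 peaks. Its main peak ran from −1434 to 3442 bp around the start, with negative values upstream, and had a signal value of 54.4. It also covered starts of Yjefn3, at −154 bp on the same strand, and of Tssk6, at 374 bp on the other strand. The 3 remaining peaks had signal values of 2.62 to 2.91. Ndufb10 and Ndufs7 had wide single peaks instead. The peak of Ndufb10 (chr17:24718791-24724531, 5741 bp) ran from −53 to 5687 bp around its start and held the starts of the ribosomal protein gene Rps2 from 3029 to 4415 bp downstream. The peak of Ndufs7 (chr10:80248581-80253857, 5277 bp) ran from −540 to 4736 bp around the start and held no start of another coding gene. In pool F it was split at 2770 bp after the start, and the downstream piece had a signal value of 9.27. That piece held a further annotated start of Ndufs7 itself at 4194 bp, from a transcript without the basic tag.

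Ndufa4l2 joined a weak promoter peak to a stronger one upstream. Its own peak (chr10:127514401-127517473) had 13.9 in pool E and 13.4 in pool F. The upstream peak (chr10:127511598-127513768), from −3369 to −1199 bp, had 40.9 in pool E and 41.4 in pool F, more than the promoter peak in each pool. It held no GENCODE TSS, and the nearest start was that of Ndufa4l2 itself at 1199 bp, followed by Stac3 at 4373 bp and Shmt2 at 5008 bp. The promoter of Ndufa4l2 also had the lowest observed over expected CpG ratio of the family, 0.187 in the 1000 bp around its start, while all other members had at least 0.488 and the median was 0.72 for members and 0.71 for all marked genes. Ndufaf3 also had a stronger peak beside its own. Its widest domain (4992 bp, chr9:108565923-108570914) joined its own peak of 33.5 to a peak of 47.4 that held the starts of Dalrd3.

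**Figure D3:**
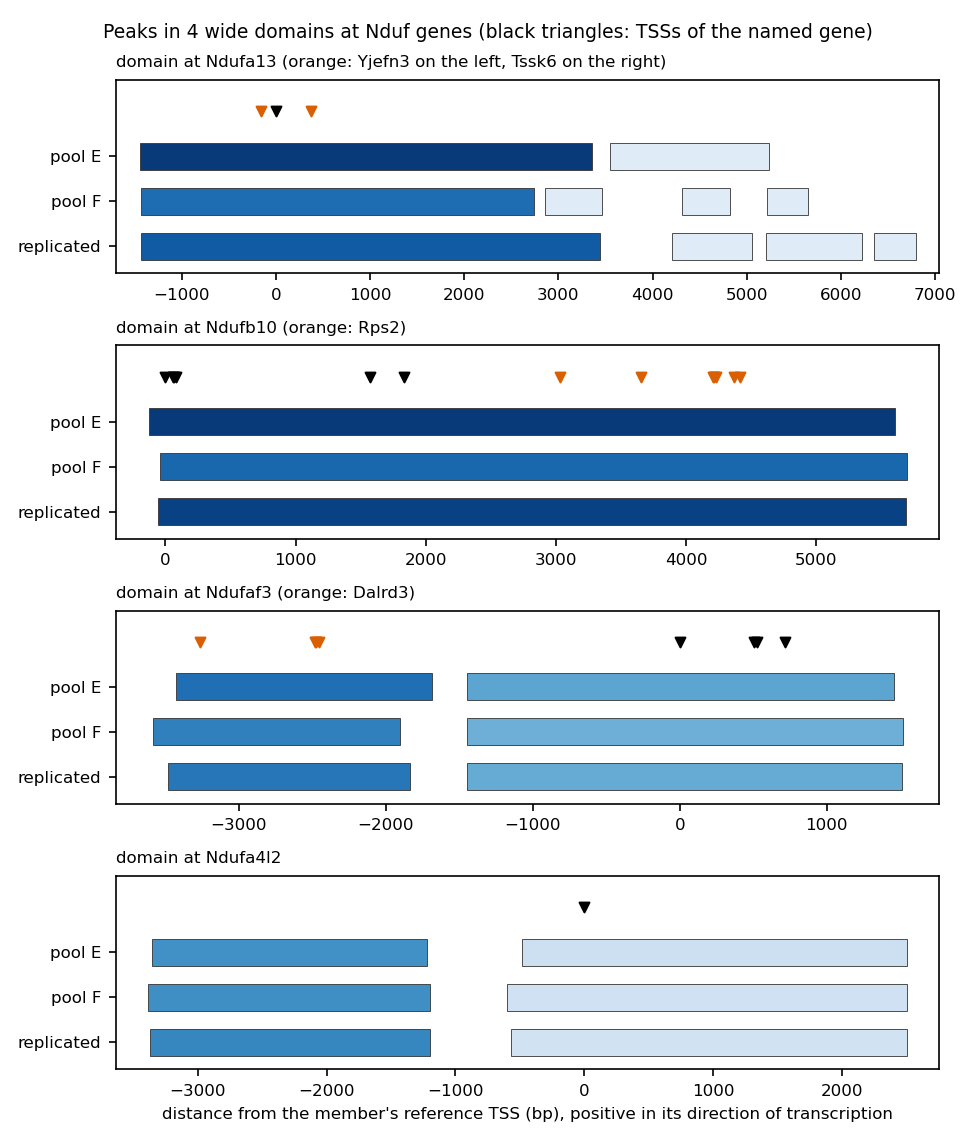
Peaks of pool E, pool F and the replicated list in 4 wide domains, with distance from the reference TSS in bp on the horizontal axis, darker blue for a higher signal value, black triangles for TSSs of the named gene and orange triangles for those of other coding genes. The upstream peaks at Ndufaf3 and Ndufa4l2 are darker than the promoter peak in every list, and the Ndufb10 peak spans the starts of Rps2.

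Many members were annotated with a head-to-head promoter. A divergent neighbour, a protein-coding gene on the opposite strand whose start lay at most 1000 bp behind that of the member without overlap, was annotated for 19 of the 46 members (41.3%). Of all protein-coding genes 11.1% had one, and of all marked genes 15.5%. The count was 4 of 8 assembly factors (50%), 3 of 7 core subunits (42.9%) and 11 of 29 accessory subunits (37.9%), plus Ndufa4. The same count was 13 of 28 (46.4%) for complexes II, III and V. It was 4 of 13 (30.8%) for the list of other complex I assembly genes, with Atp5s among the 4. The median distance between starts was 82 bp, and 16 of the 19 pairs lay within 150 bp. Over all 1232 coding pairs the median distance was 106 bp, and 790 of them lay within 150 bp. Any annotated start of either gene could form a pair. In 16 of the 19 pairs the neighbour's start lay upstream of the member's reference TSS within the limit. In Ndufs3 and Ndufs6 it lay 87 and 29 bp downstream of the reference TSS, and the pair is free of overlap through another start of the member. No test was made of these shares, which come from the annotation and not from the libraries.

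The partners were varied in function. Among core subunits, Ndufs1 lay 3 bp from Eef1b2, a translation elongation factor, and Ndufs3 lay 38 bp from Kbtbd4. Among assembly factors, Ndufaf7 lay 70 bp from Cebpz, Ndufaf5 lay 85 bp from the nucleolar gene Esf1, Ndufaf2 lay 108 bp from the DNA repair gene Ercc8, and Ndufaf8 lay 197 bp from Tepsin. Accessory subunits were paired with genes of the ribosome (Ndufa7 with Rps28 at 10 bp), the mitochondrial ribosome (Ndufs6 with Mrpl36 at 51 bp) and RNA splicing (Ndufb11 with Rbm10 at 3 bp, Ndufa2 with Ik at 99 bp). Their other partners were Rnf113a1 (Ndufa1, 82 bp), Vmac (Ndufa11, 82 bp), Asb15 (Ndufa5, 131 bp), Morn5 (Ndufa8, 52 bp), Fam126b (Ndufb3, 61 bp), Tatdn1 (Ndufb9, 18 bp) and the tRNA methylation gene Wdr4 (Ndufv3, 135 bp). Ndufa4 lay 312 bp from Phf14. Pairs for which no choice of GENCODE starts at most 1000 bp apart avoided overlap were not counted in the 19. They were Ndufb5 with Mrpl47 by 20 bp and Ndufa13 with Tssk6 by 374 bp. With such pairs included the count was 21 (45.7%), beside 12.4% of all genes. The RefSeq start of Ndufa13 lies farther downstream, beyond the start of Tssk6, so from that start the genes would not overlap. In the printed promoters, the start of Morn5 lies at −120 from the RefSeq start of Ndufa8, that of Kbtbd4 at −19 from Ndufs3 and that of Tepsin at −203 from Ndufaf8, each within the 250 bases shown.

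In all 19 pairs 1 peak of the replicated list covered the starts of both genes, and in 18 it was the strongest peak of both. The signal value of these promoters hence belongs to the pair, and how much of the mark goes with transcription of the Nduf gene cannot be told apart from that of its neighbour. The median signal value was 50.7 for the 19 members with a divergent neighbour and 54.4 for the 27 without, while over all marked genes it was 51.0 with such a neighbour and 44.3 without. Peaks of members with a neighbour reached a median of 1274 bp upstream of the reference TSS and 661 bp without one, close to the medians of all marked genes, 1288 and 667 bp. Downstream reach was 1710 bp with a neighbour and 1893 bp without, beside 1265 and 1461 bp over all marked genes.

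**Figure D4:**
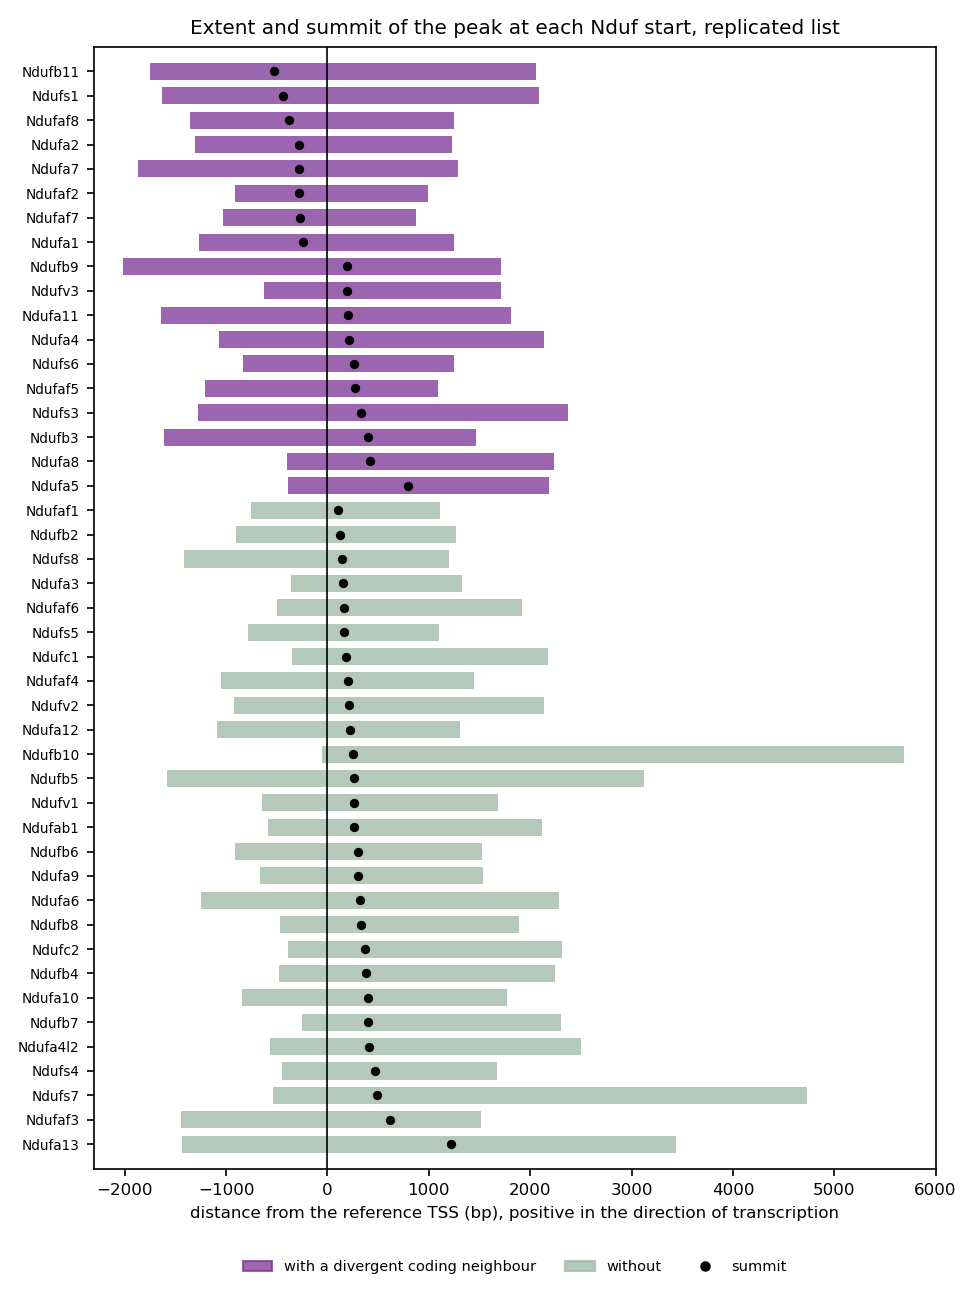
Extent (bars) and summit (black points) of the peak over the reference TSS of the reported Nduf genes in the replicated list, in bp from the TSS and positive in the direction of transcription, with genes that have a divergent coding neighbour in purple above those without. Summits lie upstream of the start in 8 genes, all with a divergent neighbour, and between 103 and 1218 bp downstream in the 27 genes without one.

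The highest point of the peak, its summit, lay a median of 238 bp downstream of the reference TSS in members and 194 bp in all marked genes. The shares given next count, among all genes, the marked ones whose reference TSS lay inside a peak. In 8 members the summit lay upstream instead, on the side of the neighbour, and all 8 had a divergent neighbour. These were 8 of 19 (42.1%), beside 42.3% of all marked genes with a divergent neighbour. None of the 27 other members had an upstream summit, beside 11.1% of the other marked genes. The 8 genes were Ndufb11 (summit at −524 bp), Ndufs1 (−443 bp), Ndufaf8 (−378 bp), Ndufa2 (−285 bp), Ndufa7 (−278 bp), Ndufaf2 (−278 bp), Ndufaf7 (−268 bp) and Ndufa1 (−237 bp). In each of them the same summit lay 155 to 521 bp downstream of the start of the neighbour, so the mark was highest over the neighbour's transcribed side.

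Both pools gave the same side in every member except Ndufaf5. In pool E the summit was upstream in 9 members and in pool F in 8, and 8 genes were upstream in both pools, all with a divergent neighbour. Ndufaf8 had its summit at −381 bp in pool E and at −385 bp in pool F. Ndufs1 had it at −467 bp in pool E and at −444 bp in pool F. Ndufaf5 had a summit at −204 bp in pool E and at 269 bp in pool F. The median difference between pools was 17.5 bp, and 3 of the 46 members differed by more than 150 bp. Summits of the pools were compared for the members only, so whether other marked genes differ from them here is not known.

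The extent of the domains was compared between the pools as well. The shared length as a share of the union had a median of 93.7% over members and 92.3% over all marked genes. Ndufa12 had a low value, 52.0%, from a domain of 4496 bp in pool E against one of 2340 bp in pool F. In pool E a second peak with a signal value of 4.26 was joined to its promoter peak. The domain was wider in pool E for 36 members and in pool F for 10. Over all marked genes it was wider in pool E for 11466 and in pool F for 3431, and the median ratio of pool E to pool F was 1.05 in both. Among assembly factors, 3 were wider in pool E and 5 in pool F.

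Most annotated starts of the members were covered. GENCODE lists 217 TSSs for the 46 genes, and 182 of them (83.9%) lay inside a peak, beside 65.0% of the TSSs of all marked genes. Another 7 lay within 1000 bp of a peak. The other 28 belonged to 13 genes that were marked at another start. All 28 but the start of Ndufb5 at 7766 bp downstream came from transcripts without the basic tag of the annotation.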

How the data were processed

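The deposited narrowPeak files on mm10 hold replicated peaks of both pools together and pseudoreplicated peaks of pool E, pool F and the 2 combined. According to the text deposited beside each sample, the technical libraries of a pool were merged in 1 alignment, so values exist per pool and not per library, and all lists also drew on an input file that is named but not described. Which aligner and peak caller were used, and how they were set, is not given in the sources used here. Signal values are the authors' figures for each peak, on a scale that no source explains. The deposited −log10 q-value of each peak was read as well. Without read counts, depth is unknown and no interval could be given.

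TSSs came from GENCODE M21. Marks, domains (peaks at most 1000 bp apart joined), divergent pairs, summits, motif matches and CpG ratios over 1000 bp were computed with Python 3.11.15, numpy 2.4.6, pandas 2.3.3 and matplotlib 3.10.9, and the steps for marks, joins and pairs were tested on simulated data. The reference TSS was the most upstream start of the best-level principal (APPRIS) transcripts. Of 2 GENCODE entries named Atp5o, the one that starts nearest to the RefSeq gene was used. Overlap between pools was the shared length over the union of a gene's widest domains. Values of members are set beside the same values over all protein-coding genes, with no test. Any member, divergent neighbour and listed assembly gene could be named, as could the highest and lowest of complexes II, III and V; other genes inside or next to a member's domain were named after their values were seen. The members and lists were chosen with earlier results of these data known. The values of 1 member are not reported here; it stays in the counts and medians.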

Additional observations from a re-analysis of the deposited data

How the results depend on the processing

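All 46 members stayed marked with a TSS window of 0 or 2500 bp, basic transcripts only, −log10 q of at least 2, the pooled list and either pool alone. Of 44 alternative counts and median widths, 38 stayed within the spread between pools, or within 1.5 times for counts, and 6 moved. For widths the spread was 311 bp for subunits and 32.9 bp for assembly factors. It came from single-pool medians that are themselves among the alternatives, so staying within it is a weak check for subunits. Median signal values are not judged by the spread between pools, which for them holds the offset between the lists of the pools. Apart from the single pools, they were 60.2 to 60.9 for assembly factors and 51.4 to 53.7 for subunits. Without replicate 1 or replicate 2, the median width was 2361.5 to 2408 bp for assembly factors and 2628.5 to 3069 bp for subunits, and the median signal value 55.7 to 65.8 for assembly factors and 46.3 to 55.9 for subunits. The median width was 2455.5 bp for assembly factors and 2583 bp for subunits without genes that have a divergent neighbour. Without genes whose domain holds another coding start it was 2412 bp for 3 assembly factors and 2523 bp for 19 subunits. In 1000 bp around any TSS, ETS letters occurred in 12 members and ERR letters in 5 of the 40, beside 28.0% and 5.29% of all genes; this window is wider by construction. Divergent members numbered 18 within 500 bp, beside 10.2% of all protein-coding genes, and 20 within 2000 bp, beside 12.3%. They numbered 15 with basic transcripts, beside 9.08%, and 20 with neighbours of any gene type, beside 18.4%. With overlapping starts included they numbered 21, beside 12.4%. Leaving out domains with another start and including overlapping starts were chosen after seeing the data. No paired analysis was possible because the study has no groups to compare within a pool. Depth is unknown, the scale of the signal value is not stated, and 2 pools give no estimate of the spread within a pool.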

Other observations

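Ndufb1-ps, which GENCODE M21 annotates as a non-coding RNA of a bidirectional promoter, had a peak over its start. Its signal value was 42.1 in the replicated list, inside the range of the 36 subunits. RefSeq calls this gene protein-coding Ndufb1, an accessory subunit, and it was left out of the members only by its GENCODE type. The pseudogenes Ndufab1-ps, Ndufs6b, Ndufb4c and Ndufa11b had no peak within 1000 bp of a start. Ndufaf3 had divergent non-coding neighbours only, 4833445I07Rik at 99 bp and Mir191 at 885 bp. Counted from RefSeq starts in place of GENCODE ones, the summit lay upstream in 6 of 40 members, all with a divergent coding neighbour. The median was 205.5 bp downstream. Ndufa2 and Ndufs1, upstream by their GENCODE starts, had no RefSeq promoter and were not counted here. At Ndufa13 the summit lay 680 bp downstream of the RefSeq start and 1218 bp downstream of the GENCODE one.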
